A study of Homo sapiens with 6 samples.

Results

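The human mitochondrial genome is a circle of DNA that carries 37 genes, and all 37 of them, out of 63677 identifiers in the count table, were taken as members by a symbol that starts with MT-. The members are 13 mRNA genes, 2 rRNA genes and 22 tRNA genes, and the rule rests on names alone. The question here was how much of each library they made up and how their transcripts were balanced against each other when RBM3, an RNA-binding protein, was silenced.

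RNA was sequenced from T24 cells, a bladder cancer line of grade 3, in 3 control and 3 siRBM3 libraries. Both groups carried no engineered allele and were transfected in serum-free medium for 4.5 h with the lipid reagent Lipofectamine and 25 nM siRNA, then left overnight in full medium. Control cells received a negative control siRNA, and siRBM3 cells received a pool of the anti-RBM3 siRNAs s11858 and s11860. All libraries came from this 1 line, and nothing states that the samples were separate cultures, so p-values measure the spread between these samples, which may be technical. The labels number the control libraries 1, 3 and 5 and the siRBM3 libraries 3, 4 and 5, and values are given below in that order, controls first. The libraries were made from polyadenylated RNA with a stranded kit and read as single ends of 75 bases.

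Library totals ranged from 23603992 to 45098612 counts, and siRBM3 replicate 3 was the deepest. That library also stood apart in its mitochondrial content, so the results below are given with and without it. RBM3 was at 225, 368 and 301 counts per 1000000 library counts (CPM, scaled by TMM factors) in the control libraries and at 54.1, 90.1 and 58.4 CPM in the siRBM3 libraries, with no overlap. The log2 fold change of RBM3 was -2.14 (SE 0.24), with FDRs of 0.0822 by the quasi-likelihood test of edgeR and 3.87e-14 by DESeq2. The keratins KRT7 (2354 to 3240 CPM), KRT8 (780 to 1344 CPM) and KRT18 (665 to 940 CPM) were high in all 6 libraries, as was CD44 (1072 to 1304 CPM). KRT19 was at 206 to 339 CPM. Other epithelial genes were low, with EPCAM at 4.90 to 6.87 CPM, CDH1 at 0.0404 to 0.724 CPM and the basal keratin KRT5 at 0 to 0.0765 CPM. The urothelial transcription factor GATA3 was low at 9.31 to 14.3 CPM, while PPARG, another one, was at 133 to 149 CPM. Of the uroplakins, the defining markers of mature urothelium, UPK1A, UPK1B and UPK3A were at or near 0 and UPK2 was at 1.13 to 1.86 CPM. The leukocyte gene PTPRC did not pass 0.172 CPM, CD3E 0.0689 CPM, CD68 0.345 CPM and the endothelial gene VWF 0.689 CPM in any library.

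As background, both strands of the mitochondrial DNA are transcribed almost in full by the polymerase POLRMT with TFAM and TFB2M, and the long transcripts are cut at the tRNAs that lie between the other genes. The mRNAs encode core subunits of respiratory complexes I, III, IV and V, the rRNAs MT-RNR1 and MT-RNR2 form the core of the mitochondrial ribosome, and the tRNAs serve its translation. Most of these mRNAs receive a short poly(A) tail inside the mitochondrion, MT-ND6 is known to lack one, and the rRNAs carry only short oligo(A) ends, which matters in libraries selected on poly(A).

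The genes lie on the mitochondrial chromosome (M) of GRCh37, which is 16569 bases long. Of the 37 genes, 28 are read from the heavy-strand transcript and 9 from the light-strand transcript, namely MT-ND6 and 8 tRNAs. For 6 of the 13 mRNAs the annotated gene stops inside the stop codon, and the poly(A) tail supplies its remaining letters. The last letters of these 6 genes are shown because they tie the mRNA to the tail on which the libraries were selected, with the letters of the incomplete stop in capitals, together with MT-ND6, whose last codon is complete. They are read 5′ to 3′ on the strand of the transcript from the GRCh37 reference.
MT-ND1 (3307 to 4262): cctcaaaccTA
MT-ND2 (4470 to 5511): ataatcttaT
MT-CO3 (9207 to 9990): tgagggtctT
MT-ND3 (10059 to 10404): tgaaccgaaT
MT-ND4 (10760 to 12137): ttttcctctT
MT-CYB (14747 to 15887): aaatgggccT
MT-ND6 (14149 to 14673, minus strand): cgggggaatAGG

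Some stretches of the members are also found in the nuclear chromosomes, as copies that were inserted there in evolution. The longest of them by number of exact 75-base matches lies at chr1:564461-570304 of GRCh37 and is 98.5% identical to the mitochondrial sequence. Within it, the annotated copy MTATP6P1 (chr1:569076-569756, plus strand) is identical to MT-ATP6 at 671 of 681 bases, and MTND2P28 (chr1:565020-566063, plus strand) is identical to MT-ND2 at 1025 of 1042 aligned bases. Below, 1 differing stretch of each pair is shown, with the differing base in capitals. Such a letter tells a copy from its parent in a read only where the cells carry the reference mitochondrial base. Positions are counted from 1 at the first base of the mitochondrial gene, so the MT-ATP6 difference is A334G and the MT-ND2 difference is A300G. At both positions the reference mitochondrial sequence carries a base that is rare among human mitochondrial genomes. Which base T24 carries was not analysed here.
MT-ATP6 (chrM:8846-8875): ccttatgagcgggcAcagtgattataggct
MTATP6P1: ccttatgagcgggcGcagtgattataggct
MT-ND2 (chrM:4755-4784): ttaataatcataatAgctatagcaataaaa
MTND2P28: ttaataatcataatGgctatagcaataaaa

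The 37 genes together made up 1.63%, 2.86% and 2.10% of the counts in the control libraries and 9.40%, 4.15% and 2.32% in the siRBM3 libraries. The groups overlapped, since siRBM3 replicate 5 lay below control replicate 3, and siRBM3 replicates 3 and 4 lay above every control. The control mean was 2.20% ± 0.622 (SD, n = 3), the siRBM3 mean was 5.29% ± 3.67 (SD, n = 3) and their ratio 2.41. The difference of 3.09 percentage points gave p = 0.2 in an exact two-sided permutation test, where 0.1 is the smallest p that 3 against 3 libraries allow, and 0.25 after Benjamini-Hochberg adjustment over the 5 values tested in this way. Without siRBM3 replicate 3 the siRBM3 mean was 3.24%, the difference 1.04 points and the ratio 1.47. Counting error was small beside the spread between libraries, with 95% Wilson intervals of 1.62% to 1.63% in control replicate 1 and 9.391% to 9.408% in siRBM3 replicate 3. These intervals cover counting error only, since reads without molecular identifiers are not independent molecules.

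**Figure D1:**
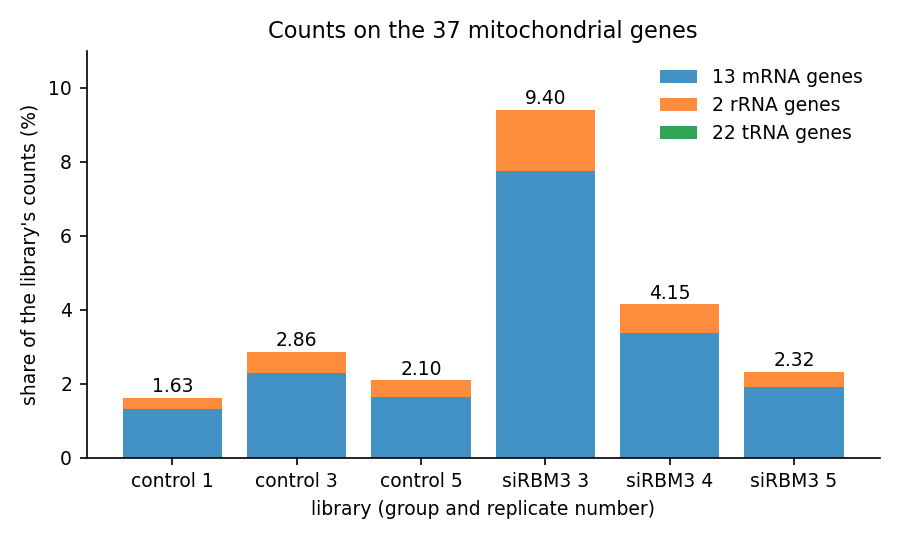
Share of each library's counts on the 37 mitochondrial genes (y axis, percent of all counts), as stacked bars of mRNA, rRNA and tRNA genes for the 3 control and 3 siRBM3 libraries (x axis), with the total written above each bar. siRBM3 replicate 3 stands at 9.40% and siRBM3 replicate 5, at 2.32%, lies among the controls, and the tRNA part is too small to be seen.

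The most counted member was MT-RNR2 in every control library and MT-ND4 in every siRBM3 library. MT-ND4 ranked 15, 5 and 11 among all genes in the control libraries and 2, 2 and 6 in the siRBM3 libraries. In the control libraries MT-RNR2 thus stood above these ranks, at places that were not computed. Of the 20 most counted genes in a library, 3, 4 and 3 were mitochondrial in control and 10, 6 and 4 in siRBM3 samples. In a bulk library, more mitochondrial RNA per cell, less of the other RNA per cell and a different mix of cells cannot be told apart. Other RNAs also varied between the libraries. Nuclear-retained RNAs, in counts per 1000000 counts outside the mitochondrial genes, were 509, 358 and 395 in control and 781, 430 and 691 in siRBM3 libraries. Of these RNAs MALAT1 stood at 200, 163 and 163 against 387, 174 and 272 and NEAT1 at 309, 195 and 232 against 393, 256 and 419, so MALAT1 was highest in siRBM3 replicate 3 and NEAT1 in siRBM3 replicate 5. A short list of other RNAs without a poly(A) tail, of which 6 of 9 genes were matched, summed to 2.33, 3.93 and 2.67 against 6.19, 5.84 and 1.78 in the same unit. This sum had the same order as the mitochondrial share within each group, while MALAT1 and NEAT1 did not. That match of order was not tested, and the sum rested mostly on RN7SL2 and RN7SK, both at low levels. The order did not hold for each gene of the list. RN7SL2 was at 3.56, 4.90 and 1.21 CPM in the siRBM3 libraries, highest in replicate 4, and RNY1, RNY3 and VTRNA1-1 were at 0. The part of RNA quality or depth in the mitochondrial share was not tested.

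Gene by gene, 22 of the 37 members passed the filter on low counts, and all 22 had a fitted log2 fold change above 0, which was true of 48.5% of the 15099 genes tested. MT-TQ and MT-TA reached the level of the filter only in the siRBM3 libraries. Their direction was fixed by that, so they add no support to the counts of members given here. The median of the 22 members was 1.42 on the log2 scale, with a range of 0.80 to 2.35, against -0.0083 over all genes tested. None of the 22 passed the thresholds of fold change 1.5 and FDR below 0.01 in edgeR, where the share called was 0% of all genes in either direction, and the smallest FDR of a member was 0.157. At an unadjusted p under 0.05, 18 members were higher and 0 were lower, while 6.56% of all genes were higher at that level and 6.58% lower. A fitted fold change of at least 2 was found for 20 of 22 members and for 0.616% of all genes. DESeq2 called 0 members, and 0.643% of all genes higher and 0.574% lower, but its own filtering left MT-TQ and MT-TA without an adjusted p, so they could not be called there.

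The members come from the same libraries and move together with the total share, so these counts are not separate pieces of evidence. The groups did not overlap for 3 of 22 members, the tRNAs MT-TQ, MT-TA and MT-TP, with every siRBM3 library above every control library, as for 9.98% of all genes. For the other 19 members the groups overlapped. For MT-TQ and MT-TA the filter on low counts had fixed the outcome, as stated above. Over all genes, 9.93% had every siRBM3 library below every control library, and 0 members did. Without siRBM3 replicate 3, the median log2 fold change of the 22 members was 0.63, 21 of 22 were above 0, and 5 had an unadjusted p under 0.05 on the higher side, against 4.35% of all genes. With TMM factors computed without the mitochondrial genes the median was 1.42, and with no scaling beyond library size it was 1.33, where the median of all genes was -0.059.

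**Figure D2:**
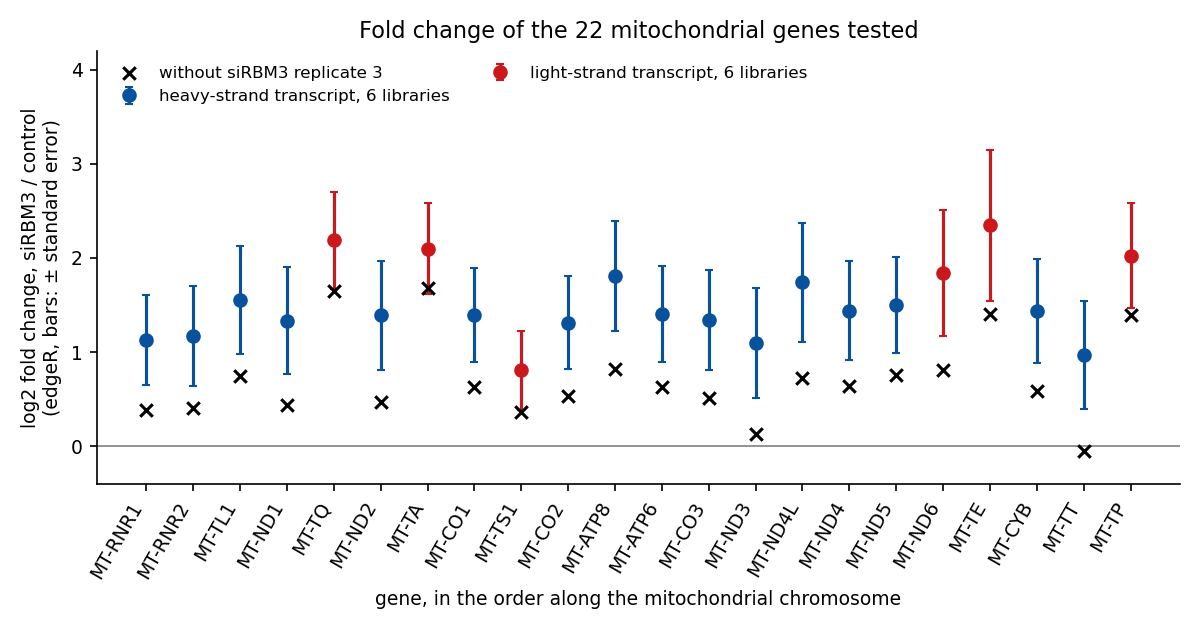
Fitted log2 fold change of siRBM3 against control (y axis) for the 22 mitochondrial genes tested, in their order along the chromosome (x axis), as circles with standard errors for all 6 libraries (blue heavy strand, red light strand) and crosses for the fit without siRBM3 replicate 3. The circles lie between 0.80 and 2.35, and the crosses have a median of 0.63, with MT-TT at -0.047.

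Complex I, the NADH dehydrogenase that takes electrons from NADH, has 7 mitochondrial subunits. MT-ND4, a proton-pumping subunit, was at 2633, 4783 and 3372 CPM in control and at 18088, 7454 and 3751 CPM in siRBM3 libraries. siRBM3 replicate 5 lay within the control range, and the log2 fold change was 1.44 (SE 0.53, FDR 0.315, edgeR), or 0.64 without siRBM3 replicate 3. MT-ND5, another pumping subunit, was at 1216, 2255 and 1446 against 8385, 3632 and 1888 CPM, with a fold change of 2.83 (SE 0.51 on the log2 scale, FDR 0.285, edgeR). MT-ND3, a small subunit, was at 243, 502 and 410 against 1630, 541 and 299 CPM, and had the lowest log2 fold change of the mRNAs at 1.10 (SE 0.58, FDR 0.478, edgeR). Its value without siRBM3 replicate 3 was 0.13. MT-ND1, MT-ND2 and MT-ND4L, which also lie in the membrane arm, had log2 fold changes of 1.33, 1.39 and 1.74 in the same fit.

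MT-ND6, the only mRNA of the light strand and a membrane subunit of complex I, was at 42.6, 53.5 and 35.1 CPM in control and at 316, 118 and 35.8 CPM in siRBM3 libraries. Replicates 3 and 4 of siRBM3 were above every control, and replicate 5 was at the bottom of the control range. The log2 fold change was 1.84 (SE 0.67, FDR 0.308, edgeR), the highest among the mRNAs, and 0.81 without siRBM3 replicate 3. The strand setting of the counting is not known here, so reads of MT-ND6 and of the transcript opposite to it may not have been kept apart.

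MT-CYB, the cytochrome b subunit of complex III, was at 1324, 2684 and 1725 against 9747, 3735 and 2019 CPM, with a log2 fold change of 1.43 (SE 0.55, edgeR). MT-CO1, the catalytic core of cytochrome c oxidase (complex IV), was at 2467, 4246 and 2952 against 15440, 6399 and 3572 CPM, with a log2 fold change of 1.39 (SE 0.50, FDR 0.304, edgeR), and 0.63 without siRBM3 replicate 3. In both genes siRBM3 replicate 5 lay inside the control range. MT-CO2, which receives the electrons from cytochrome c, and MT-CO3 had log2 fold changes of 1.31 and 1.34. Of complex V, the ATP synthase, MT-ATP6 forms part of the proton channel and MT-ATP8 is a small subunit beside it, and their log2 fold changes were 1.41 and 1.81. MT-ATP8 was at 27.6, 43.9 and 31.9 against 239, 80.9 and 40.7 CPM, with siRBM3 replicate 5 below control replicate 3 (SE 0.59, FDR 0.270, edgeR). The next gene, MT-ATP6, overlaps it by 46 bases, so reads in that stretch may not have been counted for either gene.

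The rRNA of the large ribosomal subunit, MT-RNR2, was at 2726, 5491 and 4157 CPM in control and at 16944, 7317 and 3583 CPM in siRBM3 libraries. The log2 fold change was 1.17 (SE 0.53, FDR 0.403, edgeR), below the median of the mRNAs at 1.41, and siRBM3 replicate 5 lay inside the control range. MT-RNR1, the rRNA of the small subunit, was at 181, 332 and 293 against 1059, 433 and 268 CPM, with a log2 fold change of 1.13. MT-RNR2 had 15.1, 16.5 and 14.2 times the counts of MT-RNR1 in control and 16.0, 16.9 and 13.4 times in siRBM3 libraries, and these ranges overlapped.

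Within the mitochondrial counts the balance moved little beside the total. The mRNAs made up 81.1%, 79.9% and 78.6% of them in control and 82.5%, 81.4% and 82.5% in siRBM3 libraries. The rRNAs made up 18.9%, 20.1% and 21.3% against 17.4%, 18.5% and 17.4%. In rRNA share the highest siRBM3 library lay below the lowest control library, with means of 20.1% ± 1.23 (SD, n = 3) and 17.8% ± 0.64 (SD, n = 3). The difference of -2.31 percentage points gave p = 0.1 in the exact two-sided permutation test, the smallest it can give, and 0.25 after adjustment, so it did not pass. Without siRBM3 replicate 3 it was -2.13 points, so unlike the total share this difference did not rest on that library. Put as a ratio, there were 4.30, 3.97 and 3.69 mRNA counts per rRNA count in control and 4.74, 4.40 and 4.75 in siRBM3 libraries.

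**Figure D3:**
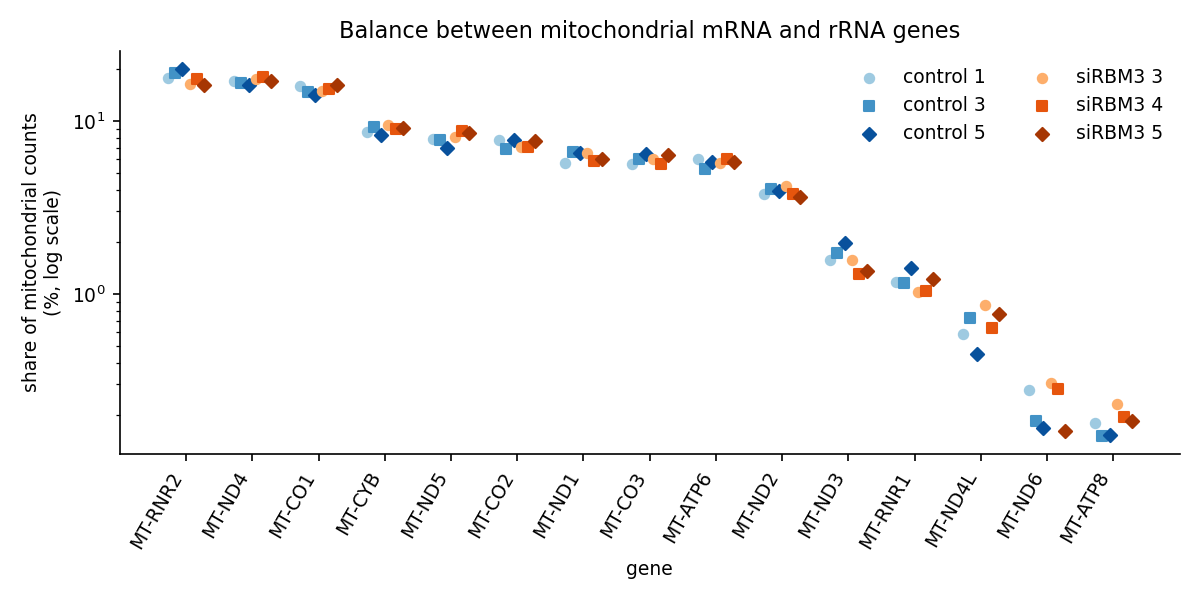
Share of the mitochondrial counts (y axis, percent, log scale) held by each of the 15 mRNA and rRNA genes (x axis), with 1 point per library, controls in blue and siRBM3 libraries in orange. The points of a gene lie close together beside the distance between genes, and only those of MT-RNR2, MT-ND5 and MT-ATP8 do not overlap between groups.

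The 7 complex I mRNAs together held 36.9%, 37.6% and 36.1% of the mitochondrial counts in control and 39.1%, 38.3% and 37.4% in siRBM3 libraries. The lowest siRBM3 library overlapped the highest control, and the difference of 1.39 points gave p = 0.2 in the exact two-sided permutation test and 0.25 after adjustment. MT-CYB held 8.59%, 9.26% and 8.27% against 9.43%, 8.92% and 9.12%. The 3 complex IV mRNAs held 29.4%, 27.5% and 28.3% against 28.04%, 27.96% and 30.1%, and the 2 of complex V held 6.17%, 5.45% and 5.96% against 5.96%, 6.22% and 5.93%. None of these shares separated the groups.

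Of the 15 mRNA and rRNA genes taken singly, 3 had shares of the mitochondrial counts that did not overlap between groups. That is 20% of them, near the 19.9% of all genes whose CPM did not overlap in either direction, so the number of such genes is no result. MT-RNR2 held 17.7%, 19.0% and 19.9% in control and 16.4%, 17.5% and 16.2% in siRBM3 libraries, lower in every siRBM3 library. MT-ND5 was higher in every siRBM3 library, at 7.88%, 7.78% and 6.93% against 8.12%, 8.68% and 8.53%. MT-ATP8 was likewise higher, at 0.179%, 0.151% and 0.153% against 0.231%, 0.193% and 0.184%. Each of the 3 gave p = 0.1 in the exact two-sided permutation test before any adjustment. The ratio of MT-ND5 to MT-ND3 counts, compared after their values were seen, was 5.00, 4.50 and 3.53 in control and 5.15, 6.71 and 6.31 in siRBM3 libraries.

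Levels were compared between genes as CPM per kilobase of gene, here without TMM factors. In control libraries the order ran from MT-RNR2 at 2670 ± 816 (SD, n = 3) and MT-ND4 at 2637 ± 721 through MT-CO2 at 2372 ± 512, MT-CO1 at 2112, MT-ATP6 at 1817, MT-CO3 at 1692 and MT-CYB at 1691. It went on with MT-ND1 at 1463, MT-ND3 at 1122, MT-ND5 at 914 and MT-ND2 at 830, and ended with MT-ND4L at 447, MT-RNR1 at 284, MT-ATP8 at 168 ± 36.2 and MT-ND6 at 84.5 ± 16.8. Neighbours in this order did not differ beyond the spread of the control libraries in 13 of 14 pairs, the exception being MT-ATP8 and MT-ND6. Within single libraries the order was steadier, since 10 of 14 neighbouring pairs kept it in all 6 libraries. The 4 others were MT-RNR2 above MT-ND4 in 2 of 6 libraries, MT-CO3 above MT-CYB in 2, MT-ND3 above MT-ND5 in 4 and MT-RNR1 above MT-ATP8 in 5. MT-ND6 was last in all 6, and its control level was 31.6-fold below that of MT-RNR2.

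These levels may depend on how reads shared with the nucleus were counted. Of the 75-base stretches in a gene, 36.6% in MT-CO1, 34.4% in MT-ND2, 28.4% in MT-RNR1, 28.01% in MT-ATP6, 17.1% in MT-ND1, 14.9% in MT-CO3 and 10.49% in MT-CO2 occur letter for letter in a nuclear chromosome. In MT-ND6 it is 7.10%, in MT-RNR2 3.37% and in MT-ND5 0.173%, and MT-ND3, MT-ND4L, MT-ND4, MT-CYB and MT-ATP8 have none. Length was then counted only over stretches not repeated in the nucleus, a choice made after seeing the data. All counts of a gene were kept, so this scale holds only if no shared read was counted for it, which is not known. On this scale MT-CO1 came first at 3502, followed by MT-CO2 at 2971, MT-RNR2 at 2901, MT-ATP6 at 2831 and MT-ND4 at 2786. So MT-CO1 moved from the fourth place to the first, and the order among the top genes depends on this choice.

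The counts of the nuclear copies varied across libraries as those of their parents did. MTATP6P1 had 6546, 9796 and 7986 counts in control and 61266, 16768 and 9233 in siRBM3 libraries, which was 24.4%, 24.4% and 24.8% of the MT-ATP6 count against 25.2%, 26.2% and 29.3%. MTND2P28 had 1336, 2205 and 1460 against 13946, 3001 and 1582 counts, or 7.92%, 7.17% and 6.75% of MT-ND2 against 7.79%, 7.49% and 7.99%. The share of MTATP6P1 in its parent was higher in every siRBM3 library than in every control library, and that of MTND2P28 overlapped between groups. Their log2 fold changes were 1.49 and 1.497, and that of MTCO1P12, with 105, 164 and 89 against 941, 199 and 88 counts, was 1.39. Of 394 annotated copies found in the table, 4 had a mean of at least 10 counts and 3 passed the filter, and MTATP6P1 and MTND2P28 held 98.5% of all copy counts. The next copies were MTCO2P12 with a mean of 12.3 counts and MTND4P12 with 9.17. All copies together made up 1.58% to 1.95% of the counts on members and copies, so adding them to the members would change the total share little. Shared reads that were dropped in the counting cannot be seen in these values, so their part in the total share is not known.

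**Figure D4:**
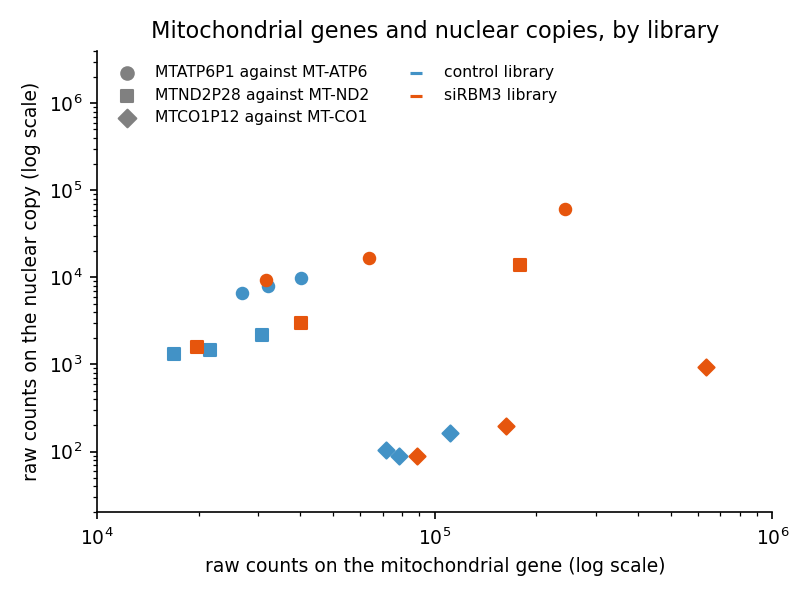
Raw counts on the nuclear copies MTATP6P1, MTND2P28 and MTCO1P12 (y axis, log scale) against those on their parents MT-ATP6, MT-ND2 and MT-CO1 (x axis, log scale), with 1 point per library. MTATP6P1 lies at 24.4% to 29.3% of its parent and MTND2P28 at 6.75% to 7.99%, and the points farthest to the right are siRBM3 replicate 3.

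The tRNAs, which are 59 to 75 bases long, were sparse. All but 1 of the 22 (21 genes) are shorter than the 75-base read, so a full-length read that counts for them also covers sequence beyond the gene. Together they held 59.5, 45.0 and 73.4 of 100000 mitochondrial counts in control and 58.2, 57.1 and 59.0 in siRBM3 libraries, which overlapped. MT-TN, MT-TK, MT-TR and MT-TL2 had 0 counts in all 6 libraries, where 3 counts, the limit that 0 allows, correspond to 0.0665 to 0.127 CPM. A further 11 tRNAs had counts in some libraries but did not pass the filter, with at most 92 in any library.

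Of the 7 tRNAs that passed, MT-TQ and MT-TA reached the level of the filter only in the siRBM3 libraries and so had to differ, which makes the number that passed no support for a difference. MT-TT, for threonine, was the most counted, with 125, 197 and 230 counts in control and 1086, 172 and 159 in siRBM3 libraries, and it held 51.7% to 75.4% of the heavy-strand tRNA counts. Its log2 fold change of 0.97 (SE 0.57, FDR 0.524, edgeR) became -0.047 without siRBM3 replicate 3, so its direction rested on that library. MT-TL1, for leucine, had 33, 57 and 58 against 401, 108 and 46 counts, and MT-TS1, for serine, 20, 25 and 42 against 114, 41 and 28. Both overlapped between groups, with log2 fold changes of 1.55 and 0.80.

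MT-TQ, for glutamine, had 5, 9 and 9 counts in control and 83, 30 and 15 in siRBM3 libraries, and its log2 fold change was 2.19 (SE 0.51, FDR 0.157, edgeR). MT-TA, for alanine, had 5, 6 and 5 against 50, 22 and 10 counts, with a log2 fold change of 2.10 (SE 0.49, FDR 0.157, edgeR). MT-TP, for proline, had 29, 12 and 23 against 217, 76 and 27 counts, and a log2 fold change of 2.02 (SE 0.56, FDR 0.209, edgeR). Scaled by depth, all 3 were higher in every siRBM3 library, and without siRBM3 replicate 3 their log2 fold changes were 1.65, 1.68 and 1.39. MT-TE, for glutamate, had the largest value among the 22 members tested at 2.35 (SE 0.80, FDR 0.286, edgeR), with 27, 14 and 15 against 272, 79 and 12 counts, so siRBM3 replicate 5 overlapped the controls.

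All of MT-TQ, MT-TA, MT-TP and MT-TE are light-strand transcripts, as are MT-TS1 and MT-ND6 among the members tested. The 6 light-strand members tested had a median log2 fold change of 2.06 and the 16 heavy-strand members 1.39, or 1.40 and 0.56 without siRBM3 replicate 3. The light-strand median includes MT-TQ and MT-TA, which passed the filter through the siRBM3 libraries alone, and the strands were not compared by a test of fold changes. As for MT-ND6, the strand setting of the counting is not known. Reads of the light-strand tRNAs and of the transcript opposite to them may therefore not have been kept apart. As a share of all mitochondrial counts the light strand held 0.297%, 0.194% and 0.186% in control and 0.324%, 0.307% and 0.180% in siRBM3 libraries. The groups overlapped, and the exact two-sided permutation test gave p = 0.5, also after adjustment. The light-strand tRNAs alone held 20.1, 9.51 and 18.4 of 100000 mitochondrial counts against 18.7, 25.7 and 18.2, and the heavy-strand tRNAs 39.3, 35.5 and 55.0 against 39.5, 31.4 and 40.8.

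When the filter on low counts was dropped, edgeR called 5 members higher. They were MT-TI (FDR 7.64e-06), MT-TQ (FDR 0.000105), MT-TA (FDR 0.00274), MT-TY (FDR 0.00343) and MT-TP (FDR 3.92e-07), all of them low in counts. In that fit 0.422% of all genes were called higher and 0.505% lower. MT-TI, for isoleucine, had 6, 5 and 6 counts against 92, 30 and 6, and overlaps MT-TQ on the opposite strand by 3 bases. MT-TY, for tyrosine, had 1, 5 and 8 against 49, 20 and 7 counts. DESeq2, which called 0 members, gave MT-TP an adjusted p of 0.0105 and MT-TE 0.0238.

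The nuclear genes that transcribe, process and maintain mitochondrial RNA and DNA were compared with the members. Of 51 listed genes, 50 were matched and 47 tested, and 0 were called in either direction. At an unadjusted p under 0.05 in edgeR, 7 were lower and 0 higher, against 6.58% and 6.56% of all genes, and the median log2 fold change was -0.13, with 36 below 0 and 11 above. In 8 of 47 every siRBM3 library was below every control library, beside 9.93% of all genes. In counts per 1000000 of the counts outside the mitochondrial genes, the list summed to 1905, 2033 and 1902 in control and to 1759, 1730 and 1782 in siRBM3 libraries, without overlap. The siRBM3 libraries were thus alike in this sum, while their mitochondrial shares spread from 2.32% to 9.40%.

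POLRMT, the mitochondrial RNA polymerase, was at 57.5, 46.5 and 49.7 CPM in control and at 41.2, 44.7 and 46.5 CPM in siRBM3 libraries (log2 fold change -0.22, FDR 0.467, edgeR). Its partners TFAM (-0.18) and TFB2M (0.068), and the mRNA-stabilising pair LRPPRC (-0.031) and SLIRP (-0.25), had FDRs of 0.449 to 0.943 in the same edgeR fit. The 5 genes with the smallest p were all lower in every siRBM3 library. PDE12, which trims poly(A) from mitochondrial RNA, was at 34.8, 38.9 and 32.6 against 25.3, 26.3 and 25.1 CPM (log2 fold change -0.47, FDR 0.157, edgeR). DGUOK, a kinase that supplies precursors for mitochondrial DNA, was at 53.1, 61.3 and 65.2 against 39.1, 47.2 and 41.7 CPM (-0.49, FDR 0.170, edgeR). NSUN4, which methylates the small rRNA and takes part in ribosome assembly, was at 34.8, 34.9 and 35.1 against 23.0, 27.5 and 26.5 CPM (-0.45, FDR 0.174, edgeR). TBRG4, of the FASTK family of RNA-binding proteins, and ATAD3A, a membrane ATPase linked to nucleoids, had log2 fold changes of -0.37 and -0.29, with FDRs of 0.256 and 0.271 in edgeR. By role, the median was -0.031 over 9 transcription genes, -0.18 over 13 processing genes, -0.13 over 13 stability and decay genes, all of them below 0, and -0.19 over 12 replication and nucleoid genes.

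The nuclear-encoded subunits of the same complexes had fold changes that centred near 0. Of 71 listed genes, 71 were matched and 60 tested. Those not tested were at or near 0 CPM, with NDUFA9 and NDUFB8 among those at 0 in all 6 libraries, and the cause was not tested. Of the 60 tested, 26 had a log2 fold change above 0 and 34 below, and the median was -0.029. In edgeR 0 were called, and an unadjusted p under 0.05 was reached by 1 gene on the higher side and 1 on the lower side. For complex I the median was -0.045 over the nuclear genes and 1.44 over the mitochondrial genes, for complex III -0.016 and 1.43, for complex IV 0.075 and 1.34 and for complex V 0.028 and 1.61. The 3 nuclear genes with the smallest p were CYC1, NDUFS5 and COX7B. CYC1, which encodes cytochrome c1 of complex III, was at 164, 183 and 177 against 139, 147 and 141 CPM (log2 fold change -0.29, FDR 0.229, edgeR). NDUFS5, of complex I, was at 114, 118 and 127 against 149, 149 and 130 CPM (0.26, FDR 0.309, edgeR). COX7B, a small subunit of complex IV, was at 66.2, 137 and 97.7 against 305, 218 and 70.1 CPM and had the largest log2 fold change of the list at 0.98. For COX7B, siRBM3 replicate 3 was highest and siRBM3 replicate 5 was within the control range, the order seen in the mitochondrial mRNAs. A fall from siRBM3 replicate 3 to 5 was not particular to COX7B. It was also seen in NDUFB9, ATP5F1E, COX6C and COX7A2, among other nuclear subunits. NDUFS5 fell less, from 149 to 130 CPM, and stayed above every control library, and CYC1 did not fall.

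Mitochondrial mRNA counts per count of the nuclear subunits were 1.99, 3.16 and 2.32 in control and 11.1, 4.56 and 3.07 in siRBM3 libraries, and the exact two-sided permutation test gave p = 0.2 and 0.25 after adjustment. The groups overlapped, with siRBM3 replicate 5 below control replicate 3. The nuclear subunits alone summed to 6759, 7444 and 7281 against 7742, 7719 and 6392 counts per 1000000 counts outside the mitochondrial genes. The subunits at or near 0 add almost nothing to these sums, so the sums and the ratio do not cover every nuclear subunit.

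**Figure D5:**
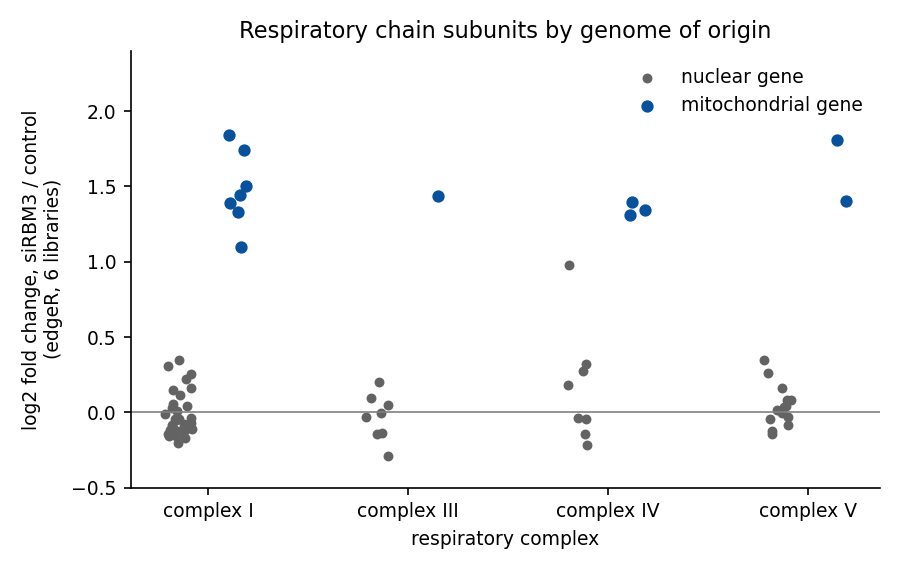
Fitted log2 fold change of siRBM3 against control (y axis, all 6 libraries) for nuclear and mitochondrial genes of respiratory complexes I, III, IV and V (x axis), with 1 point per gene. The mitochondrial genes lie between 1.10 and 1.84, and the nuclear genes between -0.29 and 0.98, the highest being COX7B.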

How the data were processed

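Reads had been trimmed by the authors with BBDuk and aligned by STAR to GRCh37 (hg19). Picard served to mark duplicates and featureCounts to assign reads to genes. The deposited values are raw counts per gene, without normalization. The annotation release, the strand setting and the treatment of duplicates and of reads with several matches are not given in the sources used. The last of these sets how reads shared between mitochondrial genes and their nuclear copies were counted.

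Of 63677 identifiers, 55665 were matched to GENCODE 44 mapped to GRCh37, and 15099 genes passed filterByExpr (minimum count 10, minimum total 15) of edgeR 4.0.16. Counts were scaled by TMM and tested with the quasi-likelihood F-test on all genes at once, with Benjamini-Hochberg adjustment. Genes were called at a fold change of 1.5 and an FDR below 0.01, the thresholds of the study, which used DESeq2. Shares were tested by exact permutation over libraries. DESeq2 1.42.0, limma-voom (limma 3.58.1), other scalings and filters, each library left out and the replicate number as a block were alternatives. R 4.3.3 and Python 3.11.15 were used. On simulated data with 200 changed genes among 15143, edgeR called 185 (92.5%) and 1 unchanged gene. The simulation gave every gene the same spread and set no library apart, so it checks the code only. It does not tell what share of true changes would be found in the real libraries, where the same fit called 0 genes.

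Sequences were read from the GRCh37 genome at the GENCODE coordinates. Nuclear copies were found by BLAST 2.17.0 (word size 28) and as exact 75-base matches. Pairs of libraries within a group differed beyond counting noise (chi-square per degree of freedom 27.7 to 141), so none was counted as a duplicate.

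All 13 mRNA and 2 rRNA genes were named, and of the tRNA genes those that passed the filter and the 3 with the highest mean count. Of the nuclear lists, POLRMT, TFAM, TFB2M, LRPPRC, SLIRP and the genes with the smallest p were named, 5 of the expression list and 3 of the respiratory chain list, and of the nuclear copies the 5 with the highest mean count. MT-TI, MT-TY and the genes at 0 in all libraries were named after their values were seen. The members and lists were chosen with earlier results of these data known.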

Additional observations from a re-analysis of the deposited data

How the results depend on the processing

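The choice of fit set how many genes were called: 0 in edgeR, 279 without a filter on low counts, 336 with the replicate number as a block, 159 in DESeq2, and 77 in DESeq2 without siRBM3 replicate 3, which was chosen after seeing the data. At an unadjusted p under 0.05 edgeR gave 990 genes higher and 993 lower. Leaving out each library gave 0 to 1 calls, the 1 without control replicate 1. Mitochondrial genes called numbered 5 without the filter and 0 under each other setting and each library left out. RBM3 passed the FDR threshold without the filter (-2.13), with the replicate block (-2.57), in DESeq2 (-2.14) and in DESeq2 without siRBM3 replicate 3 (-2.001). It ranged from -2.40 to -1.96 with a library left out. The median log2 fold change of the mitochondrial genes was lowest at 0.63 (siRBM3 replicate 3 left out) and highest at 1.82 (siRBM3 replicate 5 left out), and lay between 0.73 and 1.45 under the other settings. MT-TT turned to -0.047 in edgeR and -0.044 in DESeq2 without siRBM3 replicate 3, with -0.047 to 1.29 over the libraries left out, and the cause was not tested. Of 329 values of single members over 15 settings, 324 kept their direction and their side of the threshold. These include MT-TQ and MT-TA in DESeq2, where they had no adjusted p and only their direction could be compared.

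The groups share the replicate numbers 3 and 5, which the labels do not tie to a shared day or culture. Deviations of same-numbered libraries correlated at 0.61 for number 3 and 0.091 for number 5. With the replicate block, edgeR called 336 genes, 0 of them mitochondrial and 1 (lower) among the nuclear genes of mitochondrial expression, RBM3 was at -2.57 (FDR 2.69e-05) and the median of the mitochondrial genes was 1.04.

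The share difference lay between 1.04 and 4.58 points with a library left out, and between 2.65 and 3.38 under the other settings. The rRNA difference stayed below 0 throughout (-2.93 to -1.61). With 3 libraries a group no permutation test could pass, and the tRNA counts are too low to rank the tRNAs.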
